A study of Equus caballus with 2 samples.

Results

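The stretch of horse chromosome 13 from 4000001 to 5000000 was examined for cytosine methylation in an equine sarcoid and in skin from the same animal. Its members are the CpGs, cytosines followed by guanine, that had 10 or more reads in both libraries after the reads of both strands were added. There were 1939 such CpGs among 877053 in the genome. The stretch was chosen by measured values, since the methylation of a pair of its 1 kb tiles differed strongly and in opposite directions between the tissues. Differences between sarcoid and skin within it are therefore a description. Calls from a test run over the genome are used only to mark CpGs and tiles, and their counts stand beside the share called in the genome. The deposited files name no genome build and no annotation of that build was used here, so positions are as deposited and no gene is named.

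The sarcoid library was made from tumour tissue of horse 1, and the skin library from skin of the same horse taken at a distance from the tumour. The equine sarcoid, a growth of fibroblasts in the skin, is a common tumour of horses associated with bovine papillomavirus. The labels give no age and no treatment beyond cold storage, and there was 1 library per tissue, each sequenced on 1 lane with single-end reads of 75 bases. With no replicate, every difference below compares these 2 libraries and not the tissues in general. The files hold methylation only, so the cell makeup of the samples was not measured, and a changed level within cells cannot be told apart from a changed mix of cells. Read counts summed over cytosines came to 35970547 in the sarcoid library, with a median of 24 reads per CpG. In the skin library they came to 48650606, with a median of 30. A read counts at each cytosine it covers, so these sums are not numbers of reads.

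Methylation of a CpG is copied at cell division by a maintenance methyltransferase, and most CpGs of mammalian DNA are methylated outside of dense CpG islands, which are mostly free of it. Tumours commonly show loss of methylation at scattered CpGs together with gains at some dense ones. Reduced representation bisulfite sequencing (RRBS) reads only short fragments that start at the CCGG sites cut by the enzyme MspI, so measured CpGs come in small groups that share reads. A cytosine still read as C after bisulfite treatment counts as methylated, and the methylation level is the percent of such reads.

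The 1 kb tile that ends at 4497000 was methylated in skin and nearly unmethylated in the sarcoid. Its level was 9.09% in sarcoid (Wilson 95% interval 4.23 to 18.4, 66 reads) and 82.6% in skin (76.2 to 87.5, 172 reads), a difference of -73.5 points (95% interval -80.4 to -62.1). Reads here are summed over the 4 CpGs of the tile, and 1 read covers several of them, so these intervals cover counting error only and are too narrow. At 4496974, the CpG with the largest difference, the level was 5.88% in sarcoid and 88.4% in skin. At 4496955, the CpG with the smallest, it was 18.8% in sarcoid and 81.4% in skin. The 4 CpGs lay within 40 bases, less than the length of a read, and no cytosine had more than 17 reads in the sarcoid or more than 29 on one strand in skin. All of the sarcoid reads were on the minus strand, whereas skin had both strands, at 83.9% on the plus and 81.9% on the minus strand. On the minus strand alone the difference was -72.8 points. The CpGs at 4497001 and 4497018, just past the end of the tile and too few there to make a tile, had the same pattern. Each was at 5.88% in sarcoid, against 81.4% and 79.3% in skin. From 4496955 to 4497018 is a span of 65 bases, less than the length of a read. Both CpGs can thus lie on the same reads as the tile and are no separate observation.

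The 1 kb tile that ends at 4739000 differed the other way. Its level was 96.6% in sarcoid (88.3 to 99.0, 58 reads) and 23.1% in skin (16.5 to 31.4, 121 reads), a difference of 73.4 points (61.7 to 80.5). At 4738269, read on both strands, 18 of 18 reads were methylated in sarcoid and 13 of 45 in skin. The other 4 CpGs, up to 4738330, were read on the minus strand only, each by 10 reads in sarcoid and 19 in skin. They were at 90% or 100% in sarcoid, against 15.8% to 21.1% in skin. The value in sarcoid thus rests on 10 reads of the minus strand and 8 of the plus strand at its deepest cytosines. A pair of further CpGs in the tile had 9 and 8 sarcoid reads and fell short of the coverage minimum. They were at 66.7% and 87.5% in sarcoid and at 26.9% and 15.4% in skin. With a minimum of 5 reads they enter, and the tile then differed by 69.5 points. The plot of single cytosines shows both tiles.

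**Figure D1:**
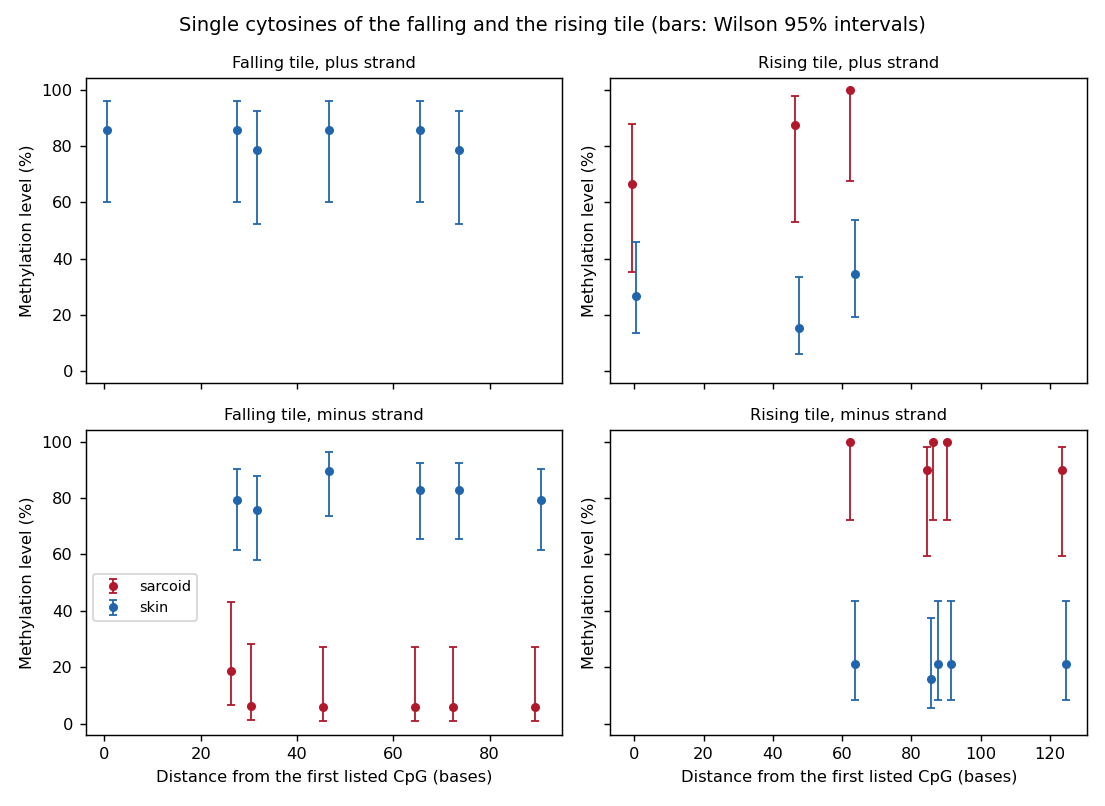
Methylation level in percent of each listed cytosine, by strand, for sarcoid (red) and skin (blue), with Wilson 95% intervals, against the distance in bases from the first listed CpG of the falling tile with the 2 CpGs past its end (left) and of the rising tile (right). Minus-strand levels of the falling tile were at most 18.8% in sarcoid and 75.9% to 89.7% in skin, its plus strand was listed in skin only, and minus-strand levels of the rising tile were 90% or 100% in sarcoid and at most 21.1% in skin.

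The members nearest to the falling tile were also lower in the sarcoid. In the tile from 4493001 the level over 7 CpGs was 11.4% in sarcoid and 43.8% in skin. In the tile from 4494001 it was 28.7% in sarcoid and 79.7% in skin over 3 CpGs. From 4493625 to 4497018, a span of 3395 bases chosen after its values were seen, all 16 members were lower in the sarcoid, by 11.5 to 82.5 points, and 12 of them were called singly by the rule given below. The mean level of the 16 was 14.5% in sarcoid and 64.8% in skin. They lay in short groups, from 4493625 to 4493712, from 4494030 to 4494081 and from 4496955 to 4497018. The last of these includes the falling tile, which led to the choice of the window. CpGs of a group often share reads, so the 16 are not separate observations. The nearest members outside that span lay 24717 bases before it and 10563 bases after it. The nearest member before it lay in the tile from 4468001, which was higher in the sarcoid, at 40.2% in sarcoid and 14.2% in skin. After the span, the next tile tested, from 4507001, was fully methylated in sarcoid (100% over 43 reads) and at 96.9% in skin. A further tile, from 4512001, was again lower, at 11.02% in sarcoid and 52.8% in skin over 6 CpGs.

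Tested tiles around the rising tile differed less or were lower. The tile from 4737001 was at 30.6% in sarcoid and 43.4% in skin over 11 CpGs. On the other side, the tile from 4741001 was at 88.3% in sarcoid and 84.6% in skin over 6 CpGs. The tile from 4735001 was at 27.1% in sarcoid and 46.6% in skin, and that from 4734001 had little methylation in either library, at 7.92% in sarcoid and 6.62% in skin. Before these, the tile from 4733001 was called lower by the rule given below, at 21.6% in sarcoid and 54.1% in skin. Of the tested tiles only that from 4737001 adjoined the rising one, and it was not called.

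Across the whole window, decreases were called more often than increases. Tiles with at least 3 members were compared by Fisher's exact test on reads, adjusted by Benjamini-Hochberg over all tiles of the genome. A call needed an adjusted p (q) below 0.01 and 25 points or more between the libraries. Of the 248 tiles tested, 16 were called lower in sarcoid (6.45%), where 4.10% of tiles were called lower in the genome. The number called higher was 5 (2.02%), against 2.28% in the genome. The difference lay within 5 points of 0 at 114 of 248 tiles, with a median of -1.92 points, against -0.41 over all tiles of the genome. In all, 148 tiles were lower in sarcoid, 96 higher and 4 equal. These shares come from the contrast that chose the window, so nothing is read from them. The map of the window shows where the calls lay.

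**Figure D2:**
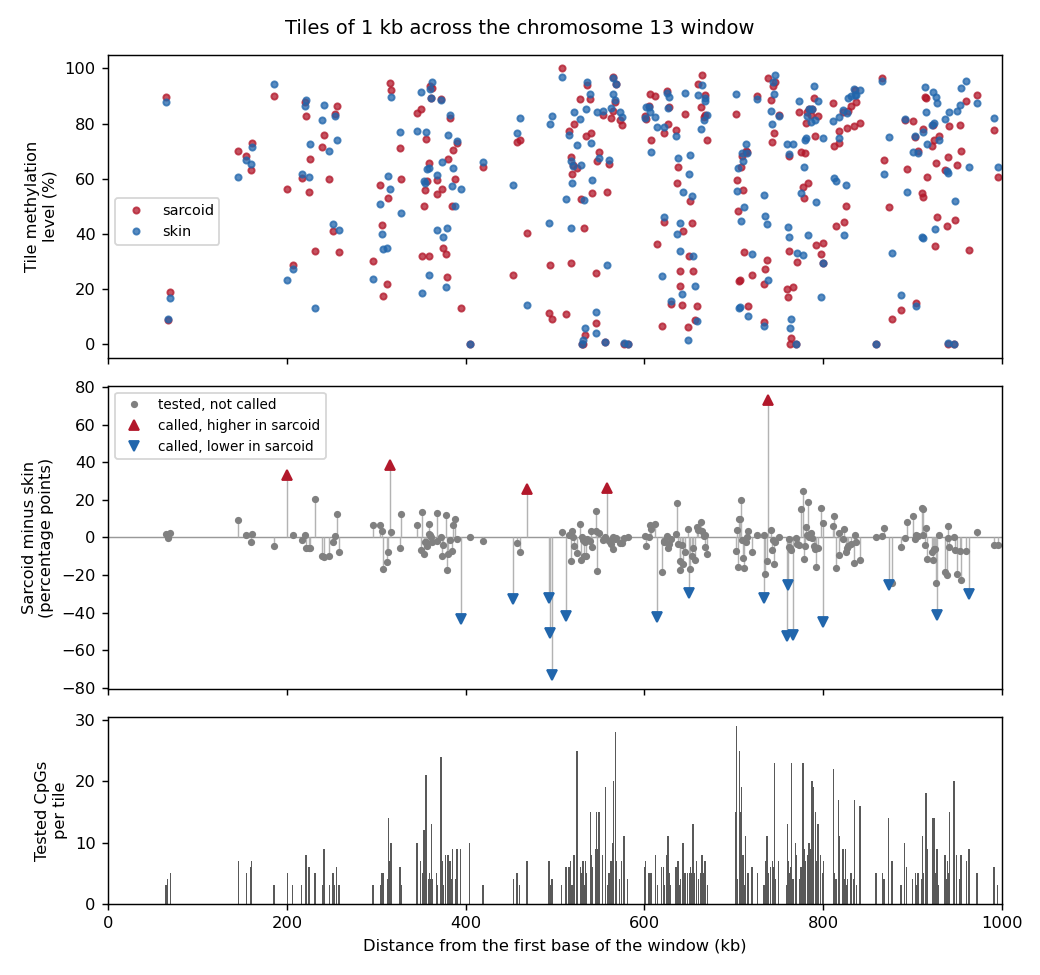
Methylation level of each tested 1 kb tile in percent in sarcoid (red) and skin (blue), its difference in percentage points, and its number of tested CpGs, along the distance in kb from the first base of the window. The 16 called decreases and 5 called increases lie among 227 tiles that were not called, with the largest decrease at -73.5 points and the largest increase at 73.4 points.

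The tiles called lower had medium to high levels in skin. Their level was 9.09% to 49.7% in sarcoid (median 23.3%), against 42.4% to 87.4% in skin (median 68.4%). Of the 16 tiles, 14 were among the 130 tested tiles between 20% and 80% in skin. The other 2 were among the 87 tested tiles at 80% or more. A tile at 20% or less in skin has no room for a called decrease, so the limit itself forces a skin level above that. No genome share of tiles by skin level was taken, so these counts are a description only. Beside those already described, the tile from 4759001 was at 20% in sarcoid and 72.5% in skin, and the tile from 4766001 at 20.6% in sarcoid and 72.5% in skin. The tile from 4760001, next to the first of these, was at 17.1% in sarcoid and 42.4% in skin over 13 CpGs. Its CpG with most reads was at 4.26% in sarcoid and 6.78% in skin, so the difference came from other CpGs of the tile. Between it and the tile from 4766001 lay 4 tested tiles with differences of -0.996 to -6.61 points. The tile from 4762001 was at 68.1% in sarcoid and 69.1% in skin, and the tile from 4764001 had 2.34% in sarcoid and 8.96% in skin over 23 CpGs. Large and small differences thus alternated within 8 kb here.

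Several decreases held more CpGs. In the tile from 4394001 the level over 9 CpGs was 13.1% in sarcoid (10.5 to 16.2, 528 reads) and 56.3% in skin (52.3 to 60.2, 599 reads), and all 9 were lower. In the tile from 4927001 it was 46.2% in sarcoid and 87.4% in skin, again with all 9 CpGs lower. Another tile of 9 CpGs, from 4963001, was at 34.0% in sarcoid and 64.3% in skin, with 5 of the CpGs called singly. All 9 CpGs were lower in each of these 3 tiles. The tile from 4873001 was less clear. Its level over 14 CpGs was 49.7% in sarcoid and 75.2% in skin by summed reads (-25.5 points), but the mean over its CpGs was -13.9 points, and none of them was called singly (count 0). The remaining decreases, from 4453001, 4614001, 4650001, 4733001 and 4799001, were at 21.6% to 36.2% in sarcoid and 54.1% to 78.6% in skin.

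Only 5 tiles were called higher, and the rising tile described first had the largest difference of them. The tile from 4315001 was at 94.8% in sarcoid (89.6 to 97.4, 134 reads) and 56.1% in skin (51.0 to 61.0, 378 reads), with 7 of 7 CpGs higher. All of its sarcoid reads were on the plus strand, as were 346 of its skin reads. The tile from 4200001 was at 56.4% in sarcoid and 23.3% in skin, where skin was read on the minus strand only and sarcoid on both. The tile from 4468001 was at 40.2% in sarcoid and 14.2% in skin, and it was the one called increase with a skin level of at most 20%. The tile from 4558001 was at 55.1% in sarcoid and 28.8% in skin over 3 CpGs, with a mean over CpGs of 20.1 points. A tile with more CpGs, from 4777001, lay just under the limit at 56.9% in sarcoid and 32.1% in skin, with 20 of its 23 CpGs higher and 3 called singly. The tile from 4783001 had 58.4% in sarcoid and 39.7% in skin, with 4 of its 10 CpGs called singly.

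**Figure D3:**
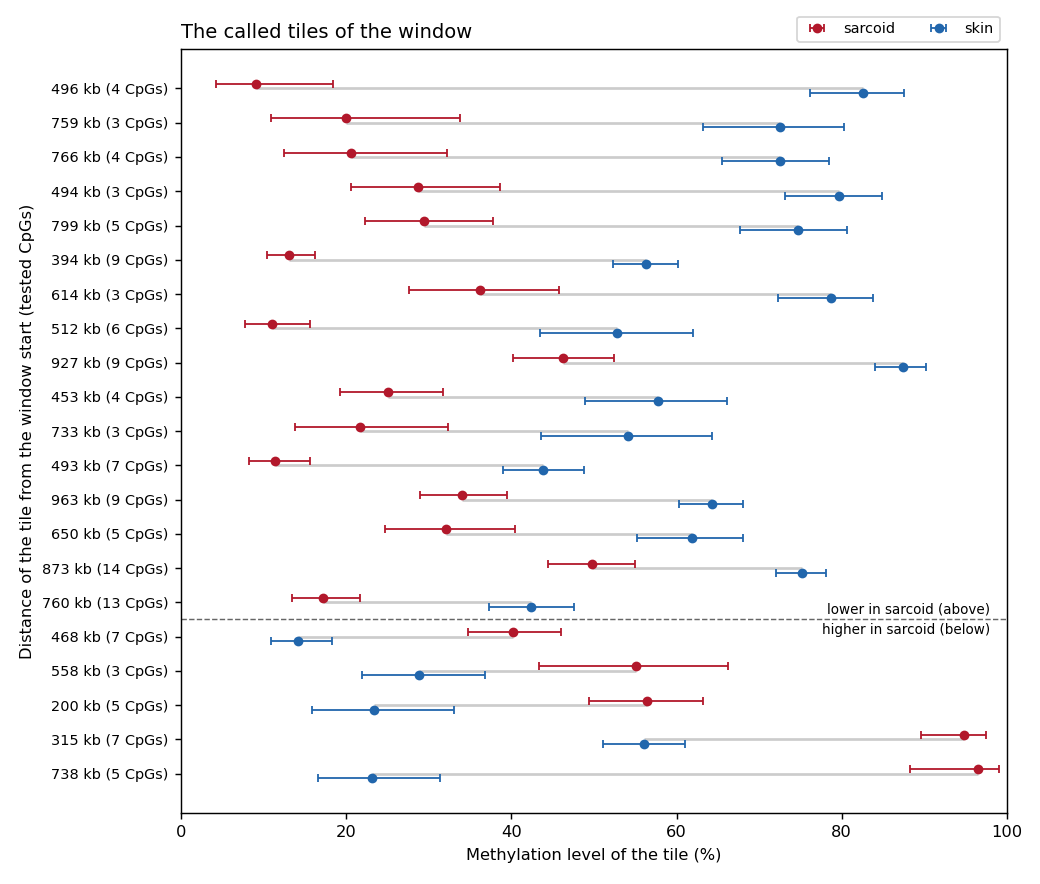
Methylation level in percent of the 21 called tiles in sarcoid (red) and skin (blue), with Wilson 95% intervals, each row naming the distance of the tile from the window start and its tested CpGs. Decreases stand above the dashed line, with sarcoid levels of 9.09% to 49.7%, and increases below it, with sarcoid levels of 40.2% to 96.6%.

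Most called tiles were short. The CpGs of 12 of the 21 lay within 75 bases, as did those of 113 of the 248 tested tiles. Taken from the CpG with most reads alone, so that a read counted once, 11 of the 21 were still called and 21 of 21 kept their direction. Both tiles first described were among the 11. In 18 of the 21 tiles all CpGs moved in the direction of the tile, and in 19 the mean over CpGs was also past 25 points. The tiles were called on these same reads, and both tiles first described were chosen for their difference. Calling favours such counts, so they describe the tiles and lend the calls no separate support. Of 101 pairs of adjoining tested tiles, 2 had both called, each pair in one direction, and 7 had one called.

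At single CpGs, called by the same test and limits, 58 of 1939 members were lower in sarcoid (2.99%), against 1.89% of CpGs in the genome. The number called higher was 23 (1.19%), against 0.954% in the genome. With no test, 212 members (10.9%) were at least 25 points lower and 96 (4.95%) at least 25 points higher, against 7.25% and 4.50% in the genome. Of the 81 called members, 45 lay in the called tiles and 36 outside them. They formed 40 runs of one direction with steps of at most 1 kb, of which 24 held a single CpG and 11 held 3 or more. The longest runs held 6 called CpGs each, 1 of them in the tile from 4394001 and 2 in the span from 4493625.

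Decreases lay at members of medium or high level in skin. Of 865 members at 80% or more in skin, 26 were called lower (3.01%), and of 750 between 20% and 80%, 32 were called lower (4.27%) and 18 higher (2.40%). Among 324 members at 20% or less in skin, 5 were called higher (1.54%). A CpG at 80% or more in skin has no room to gain 25 points, nor one at 20% or less to lose them. In the genome 3.15% of CpGs at 80% or more in skin and 3.13% of those between were called lower. Called higher in the genome were 2.32% of those between and 0.589% of those at 20% or less.

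Differences were local. Across pairs of members 1 to 75 bases apart, which often share reads, Pearson's r of the difference was 0.52 (5105 pairs). It was 0.25 at 76 to 300 bases (3507 pairs), 0.12 at 301 to 1000 bases (5547 pairs) and 0.08 at 1001 to 5000 bases (27848 pairs). Beyond that, at 5001 to 20000 bases, it was -0.00478 (88033 pairs). These are descriptions across pairs that reuse the same CpGs.

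A group of tiles had little or no methylation in either tissue. Of the 248 tiles, 24 (9.68%) were at most 20% in both libraries, against 21.6% of tiles in the genome. Such tiles cannot differ by 25 points, so no call was possible among them. Their differences ran from -6.61 to 5.41 points. The densest was the tile from 4946001 to 4947000, where 44 CpGs were listed and 20 tested. It had 0 methylated reads of 1032 in sarcoid and 0 of 1551 in skin. Taken as separate reads, these allow levels of up to 0.291% in sarcoid and 0.193% in skin. Reads are summed over the 20 CpGs and 1 read covers several of them, so both limits are too low. In 3 further tiles, from 4530001, 4581001 and 4859001, there were also 0 methylated reads in both libraries, on 88 to 291 reads. The tile from 4556001 was at 0.68% in sarcoid and 0.67% in skin over 19 CpGs. At the other end, 63 tiles (25.4%) were at least 80% in both, against 16.6% of tiles in the genome. An example is the tile from 4567001 with 28 CpGs, at 87.7% in sarcoid and 88.4% in skin. That tile and the one from 4372001, at 88.9% in sarcoid and 88.4% in skin over 24 CpGs, were among the 5 with most tested CpGs. The other 3 of these were the tile from 4703001 with 29 CpGs, at 59.5% in sarcoid and 55.6% in skin, that from 4524001 with 25, at 63.9% in sarcoid and 72.2% in skin, and that from 4706001 with 25, at 22.8% in sarcoid and 12.9% in skin.

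The mean over all 1939 members was 60.3% in sarcoid and 62.5% in skin, a difference of -2.19 points (counting interval -2.65 to -1.73, CpGs taken as independent). The standard deviation of the difference over members was 18.1 points and its median 0. Without both tiles that led to the choice of the window the mean difference was -2.24 points, so the opposite changes of those tiles left the mean almost as it was. With reads summed over all members in each library, the levels differed by -6.33 points. A CpG can weigh differently in each library there, so unequal coverage also enters that value. Over the 495 members with 10 reads on both strands in both libraries the mean difference was -4.26 points. The size of the difference thus depends on the weights and on the members used.

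Within the window the mean difference was uneven. In steps of 100 kb it ranged from -13.4 points from 4400001 to 4500000, where 52 members averaged 30.8% in sarcoid and 44.2% in skin, to 2.22 points from 4200001 to 4300000, with 62.8% in sarcoid and 60.6% in skin. The second lowest was the last step, from 4900001 to 5000000, at -6.16 points, with 63.3% in sarcoid and 69.4% in skin over 252 members. The step from 4700001 to 4800000 held most members, 504, and averaged 56.7% in sarcoid and 56.8% in skin, with 11 CpGs called lower and 14 higher. Members were few at the start of the window, where none lay before 4064838 and 16 lay before 4100000.

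Set beside its flanks, the window resembled the following megabase in level and the preceding one in difference. From 3000001 to 4000000 the mean over 444 CpGs was 73.6% in sarcoid and 76.3% in skin (-2.66 points, -3.63 to -1.69). From 5000001 to 6000000 it was 61.6% in both over 3588 CpGs (0.028 points, -0.322 to 0.377). Over the rest of chromosome 13 it was 47.7% in sarcoid and 48.9% in skin (-1.22 points) and over the genome 42.7% in sarcoid and 43.9% in skin (-1.28 points). The preceding megabase had 3 tiles called lower and 0 higher of 71, with 11 single CpGs called lower and 2 higher. The following one had 18 tiles called lower and 16 higher of 411, with 67 single CpGs called lower and 51 higher. As shares of CpGs these were 2.48% lower and 0.450% higher in the preceding megabase, and 1.87% lower and 1.42% higher in the following one. Chromosome 13 has 43 megabases with 50 or more CpGs, of which 12 had a more negative mean difference than the window and 34 a mean difference below 0. With 1 library per tissue, none of these contrasts between regions was tested.

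**Figure D4:**
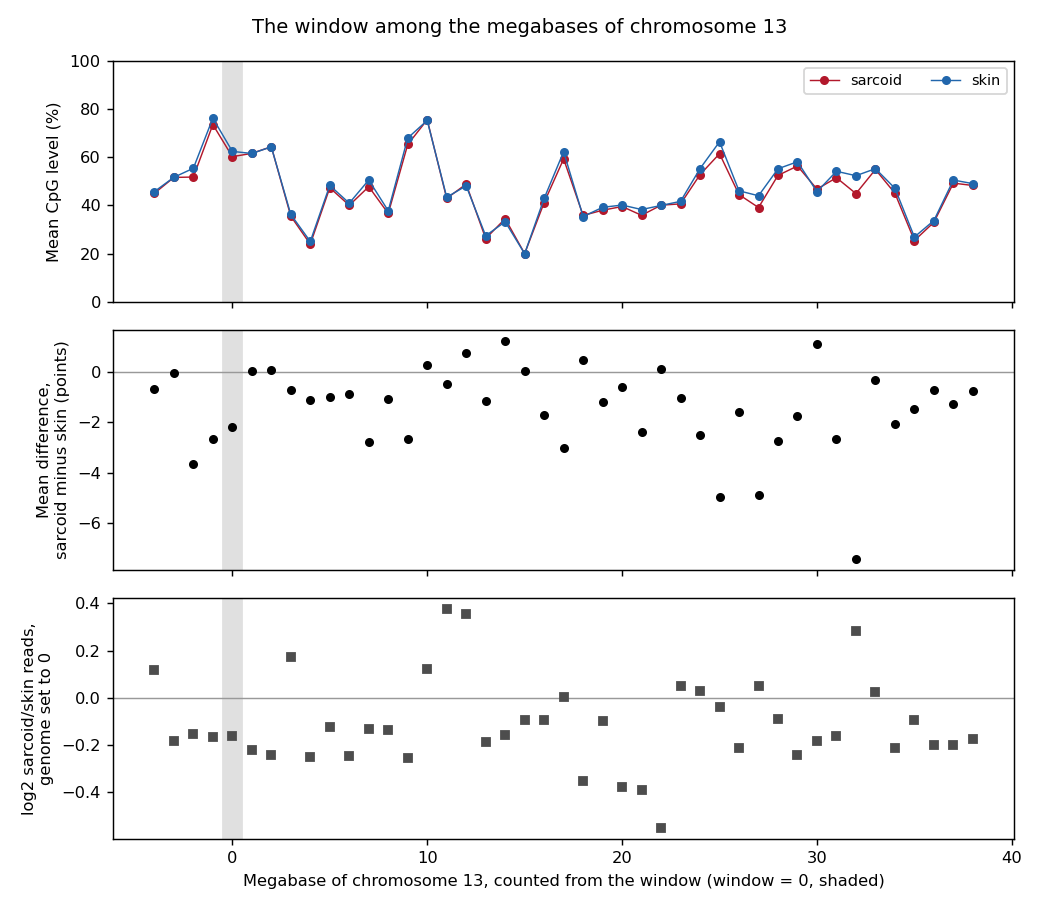
Mean CpG level in percent in sarcoid (red) and skin (blue), mean difference in percentage points and log2 depth ratio of sarcoid over skin (genome set to 0) for the 43 megabases of chromosome 13 with at least 50 CpGs, counted from the window, which is shaded. The window lies at 60.3% in sarcoid and 62.5% in skin, with a difference of -2.19 points and a depth ratio of -0.16.

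Levels were also taken by the number of CpGs listed in a tile. In tiles listing 21 to 40 CpGs, the 406 members of the window averaged 67.8% in sarcoid and 67.0% in skin, and 761 CpGs of the following megabase 59.6% in sarcoid and 58.1% in skin. In the genome such tiles averaged 23.2% in sarcoid and 24.0% in skin, and the preceding megabase had none. The 20 members of the window in a tile listing over 40 CpGs were at 0% in both libraries, against 12.5% in sarcoid and 12.8% in skin in the genome. In tiles listing 1 to 5 CpGs the levels were closer, at 54.7% in sarcoid and 59.4% in skin in the window and 57.8% in sarcoid and 59.8% in skin in the genome. Members at 20% or less made up 19.1% in sarcoid and 16.7% in skin, against 41.7% and 39.9% in the genome. Of 1979 megabases of the genome, 177 had a higher mean in skin than the window. Tested tiles held a median of 6 CpGs in the window, 5 and 7 in the preceding and following megabase, and 6 in the genome.

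Depth, which played no part in choosing the window, was like that of its surroundings. Sarcoid over skin reads on the log2 scale, with the genome set to 0, gave a ratio of -0.16 in the window, -0.16 and -0.22 in the preceding and following megabase and -0.18 over the rest of chromosome 13. Median coverage of the members was 27 reads in sarcoid and 43 in skin. Single tiles ranged from -1.60 to 2.80 (median -0.20), and called tiles from -1.07 to 1.61 (median -0.33). The falling tile was at -0.95 and the rising tile at -0.63, both with fewer sarcoid reads than the median tile. Across the 248 tiles Pearson's r between depth ratio and methylation difference, which share the libraries, was 0.04.

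The tiles of most uneven depth are given with their calls. The 5 tiles with the highest depth ratio, from 4206001, 4621001, 4814001, 4658001 and 4716001, were at 1.87 to 2.80, and none of them was called (count 0). The tile from 4206001 had 170 reads in sarcoid and 33 in skin, with levels of 28.8% in sarcoid and 27.3% in skin. Called tiles also had uneven depth, with the tile from 4512001 at 1.61 and that from 4200001 at 1.55. The 5 with the lowest, from 4568001, 4612001, 4528001, 4837001 and 4711001, were at -1.60 to -1.21, again with no call (count 0). The tile from 4568001 had 88 reads in sarcoid and 361 in skin and was at 94.3% in sarcoid and 94.5% in skin.

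Calls and large differences were also counted by depth. The test reaches a call more easily at deeper CpGs, and no genome share by depth was taken. The calls per band are therefore a description only. Among 717 members whose lower coverage was 10 to 19 reads, 19.4% were at least 25 points apart, with 13 called lower and 5 higher. Among 887 with 20 to 39 reads 14.0% were that far apart, with 22 called lower and 15 higher, and among 335 with 40 or more in both libraries 13.4% were that far apart, with 23 called lower and 3 higher. Just inside the coverage minimum, 73 members with 10 reads in their shallower library averaged 71.0% in sarcoid and 69.3% in skin, with 26.0% of them at least 25 points apart. Just outside it, 101 CpGs with 9 reads averaged 60.4% in sarcoid and 54.9% in skin, with 24.8% at least 25 points apart.

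Plus and minus strand of each CpG were then set against each other inside a library, a measure apart from the contrast that chose the window. Both strands were listed at 1010 members in sarcoid and 1062 in skin. With 10 reads on each strand, the same test and limits called the strands different at 105 of 667 CpGs in sarcoid (15.7%), against 14.0% in the genome. In skin they differed at 75 of 805 (9.32%), against 9.34% in the genome. The preceding megabase had shares of 29.1% in sarcoid and 13.3% in skin, over 134 and 180 CpGs, and the following one 14.4% and 8.97%. The window was thus near the genome in both libraries.

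Strand gaps recurred in both tissues. At the 495 members with 10 reads on each strand in both libraries, strands were at least 30 points apart at 83 in sarcoid and 84 in skin. At 69 CpGs they were apart in both, with the same strand higher at 69 of 69. Pearson's r of the gap between the libraries was 0.85 across these CpGs, which lie on shared fragments. Some gaps had 1 strand at 0% in both libraries. At 4159884 the plus strand was at 79.4% in sarcoid and 79.2% in skin, and the minus strand at 0% in both. At 4159947 the plus strand was at 0% in both, and the minus strand at 70% in sarcoid and 76.9% in skin. Merged levels join such strands, and the cause of the gaps was not tested. Of the 81 called members, 24 were in the set of 495. All 24 had one sign on both strands, 17 of them with at least 25 points on each, although calls on merged reads favour such a result. Strands listed were not the same in the libraries at 184 members (9.49%) and at 14 of the 81 called ones (17.3%), among them those of the falling tile, and their part in these calls was not tested.

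**Figure D5:**
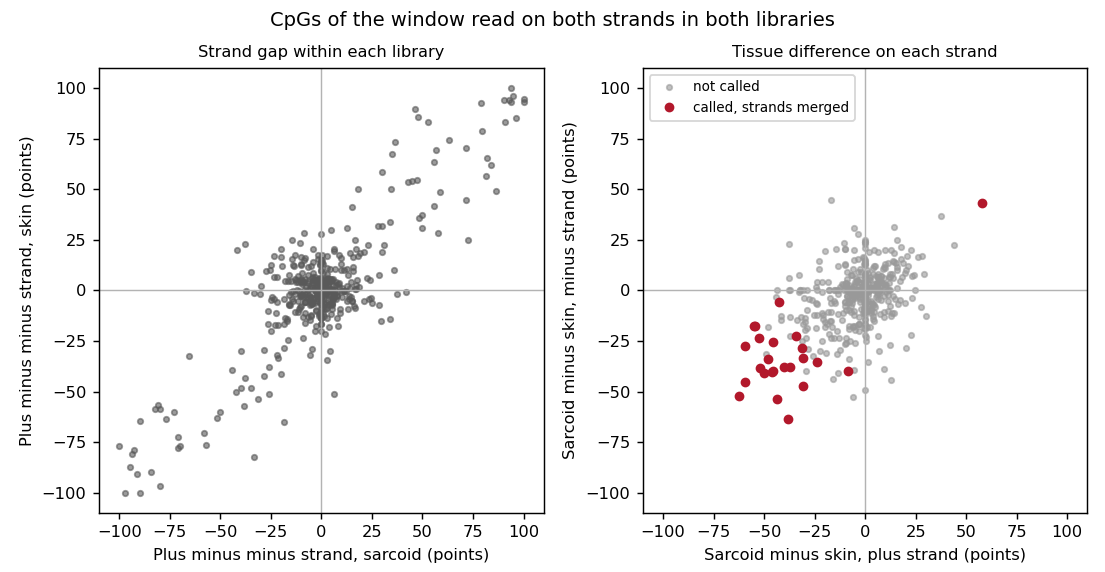
The 495 members with 10 or more reads on each strand in both libraries. Left, plus-strand minus minus-strand level in points in sarcoid (horizontal) and skin (vertical), with 69 CpGs at least 30 points apart in both libraries, with the same strand higher in both. Right, sarcoid minus skin in points on the plus (horizontal) and minus strand (vertical), where the 24 called CpGs (red) have one sign on both strands, 23 of them lower in sarcoid.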

How the data were processed

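Per the file headers, the authors deposited for each library a read count (coverage) per cytosine of a CpG and strand, plus the share of them read as C and as T in percent. BSMAP, FastQC and methylKit are named per the submitters' processing notes, and versions, settings and genome build are not given in the sources used here. Per the labels' protocols, libraries followed Illumina's RRBS guide, and reads were 75 bases, single end, on 1 lane per library. Cytosines under 5 reads are 0.106% of those with reads in sarcoid and 0.104% in skin.

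Methylated reads were coverage times percent, rounded. The position of a minus-strand cytosine was reduced by 1, and both strands were summed. A CpG was kept where each of the libraries had 10 reads on it, with no upper limit. Tiles of 1 kb needed 3 such CpGs. Two-sided Fisher's exact tests were adjusted by Benjamini-Hochberg over all CpGs or tiles of the genome. They compare 2 libraries and not tissues. Reads without molecular identifiers may be copies, so intervals cover counting error only. Wilson intervals are at 95%, differences have Newcombe intervals from these, and a count of 0 allows 3 reads. Depth ratios use summed reads. The functions were tested on simulated reads.

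Tiles named were both tiles of the choice and their neighbours, every called tile, the 5 with most CpGs and the 5 at either end of depth ratio. Others named, and the span from 4493625, were chosen after their values were seen. Members, lists and settings were chosen with earlier results of these data known. The authors' table of chromosome 1 was not used. The tools were SciPy 1.17.1, numba 0.67.0, NumPy 2.4.6, matplotlib 3.10.9 and pandas 2.3.3 under Python 3.11.15.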

Additional observations from a re-analysis of the deposited data

How the results depend on the processing

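No paired analysis was possible because each tissue has 1 library. Of 1939 CpGs tested, 58 were called lower and 23 higher. On the plus strand alone 27 and 8 of 1176 were called, and on the minus strand alone 13 and 7 of 1196. At CpGs read on both strands 24 and 1 of 495 were called. Thinned to 10 reads per CpG, 0 and 0 of 1939 were called by Fisher's exact test, with 73 members at an unadjusted p below 0.05. Tile calls of 16 lower and 5 higher of 248 became 10 and 2 of 178 at a minimum of 20 reads. With a limit of 40 points they were 9 and 1 of 248. With at least 5 CpGs, 9 of 175 tiles were lower, and on the minus strand 2 of 179 were higher. The number tested changed in most of these settings and no genome share was taken for them, so the counts are a description only. The mean difference of -2.19 points was -3.27 on the plus strand, -4.26 at CpGs read on both strands and -3.10 as a mean over tiles. From reads summed in each library it was -6.33. The tile that ends at 4739000 differed by 58.4 points on the plus strand at a minimum of 5 reads, a setting chosen after seeing the data. The depth ratio of -0.16 was -0.12 as a median over CpGs and 0.0209 relative to chromosome 13. Strand calls with 20 reads per strand numbered 22 in sarcoid and 26 in skin, over fewer CpGs. The other 45 of 68 values stayed within their limits. For the other 19 called tiles, 18 of 109 values were no longer called, all with their direction kept. Leaving out the 0.1% of CpGs with most reads removed 0 members of the window. A minimum of 5 CpGs leaves the reads of a kept tile as they were. Values of tiles under both settings could thus hardly move and lend the calls no support. Tiles no longer tested are not among the 109. Of all 21 called tiles, 14 were still tested at a minimum of 20 reads and 13 with at least 5 CpGs. On the plus strand 13 were, and on the minus strand 15. The tile that ends at 4497000 could not be fitted on the plus strand, where the sarcoid has no listed cytosine. Few reads limit both opposite tiles.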

Other observations

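Some CpGs of the window were listed in one library only. There were 64 in sarcoid alone, on 22 tiles, with a median of 8 reads and a mean level of 55.2%. In skin alone there were 367, on 111 tiles, with a median of 8 reads and a mean level of 58.6%. Of these, 22 in sarcoid and 130 in skin had 10 or more reads. They made up 2.19% and 12.5% of the 2926 CpGs listed in either library, against 4.73% and 9.16% in the genome.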
